A study of Sus scrofa with 12 samples.

Results

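The insulin-like growth factor (IGF) system is a small set of secreted ligands, cell surface receptors and ligand-binding proteins, and 10 of its genes were looked for here: the ligands IGF1 and IGF2, the receptors IGF1R and IGF2R, and the binding proteins IGFBP2 to IGFBP7. Genes were chosen by name alone, as the rows of the count matrix whose Ensembl identifier carries one of these symbols in the pig gene name table. This gave 8 of the 10, among 25880 genes listed, of which 20341 had at least 1 count and 14262 were tested. IGF2 and IGFBP3 had no identifier in the name table and were not analysed here, so the spread of IGF2 between pigs is not given.

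RNA sequencing was made on Semimembranosus, a muscle of the ham, from 12 Italian Large White pigs kept in one environment on one diet and slaughtered at 229 to 249 days of age. The study contrasted 6 pigs with high intramuscular fat (IMF) content, numbered 1 to 6, with 6 pigs with low IMF content, numbered 7 to 12. By label each group held 3 females and 3 castrated males, and no agent or genetic modification was used. The groups are extremes of an untreated population, the tissue is whole muscle, and by the study's methods the pigs were unrelated. Each pig gave 1 library with 131048805 to 178013997 counts, and the 8 genes had between 142 and 31180 counts per pig. Libraries shared sequencing lanes in pairs, but the labels do not give which pairs, so lanes could not be compared.

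The labels were checked against the counts before any comparison. Counts on EIF1AY and KDM5D, genes of the Y chromosome, lay at or under 6 or at or above 3734 in each pig, and in 6 of the 12 pigs they went against the labelled sex, 2 in the high and 4 in the low IMF group. The high counts were in pigs 3, 4 and 6 of the high and pigs 9, 10 and 11 of the low IMF group. By these counts, as by label, the groups thus held equal numbers of each sex. Differences between the groups are also given without the 6 pigs that went against the label, and then 4 high and 2 low IMF pigs are left. Whether pigs were exchanged between groups was not tested. Of the muscle fibre genes, ACTA1, CKM, DES, TNNT1 and TNNT3 were counted, and their summed level was 32193 to 46249 CPM (counts scaled to the library size) in the high and 33961 to 61776 CPM in the low IMF group. The other 6 muscle genes looked for, MB, TTN, MYH1, MYH2, MYH4 and MYH7, carried no identifier here. Summed adipocyte markers spanned 181 to 321 CPM in the high and 145 to 383 CPM in the low IMF group, and 0 of these 10 genes reached an unadjusted p of 0.05.

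IGF1 is made under the control of growth hormone in liver and also locally in muscle, where it promotes fibre growth. It signals through IGF1R, a receptor tyrosine kinase that acts on the PI3K, AKT and mTOR cascade, whereas IGF2R, the cation-independent mannose 6-phosphate receptor, carries lysosomal enzymes and takes IGF2 into the cell for degradation. The binding proteins hold the ligands outside the cell and can restrain or prolong their action. IGFBP6 prefers IGF2, and IGFBP7 is a related secreted protein with low affinity for IGFs that is typical of blood vessels.

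The ligand IGF1 and the 2 receptors are shown first by the 250 bases before their RefSeq start (Sscrofa11.1), where IGF1 differs from the receptors in base composition. These bases did not enter the GC slopes described further on, which rest on transcripts. CG dinucleotides are in capitals, and the strand printed is that of the gene.

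IGF1: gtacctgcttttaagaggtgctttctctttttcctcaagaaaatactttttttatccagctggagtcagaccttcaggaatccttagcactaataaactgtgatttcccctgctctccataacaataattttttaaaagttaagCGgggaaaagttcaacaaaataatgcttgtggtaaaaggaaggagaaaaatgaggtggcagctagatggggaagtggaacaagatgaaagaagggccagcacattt

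IGF1R: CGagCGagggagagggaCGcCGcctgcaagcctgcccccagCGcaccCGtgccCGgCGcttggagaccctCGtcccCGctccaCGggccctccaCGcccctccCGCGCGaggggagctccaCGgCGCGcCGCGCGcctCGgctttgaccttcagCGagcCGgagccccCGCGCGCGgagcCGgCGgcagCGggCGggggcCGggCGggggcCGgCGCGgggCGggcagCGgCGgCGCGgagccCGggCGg

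IGF2R: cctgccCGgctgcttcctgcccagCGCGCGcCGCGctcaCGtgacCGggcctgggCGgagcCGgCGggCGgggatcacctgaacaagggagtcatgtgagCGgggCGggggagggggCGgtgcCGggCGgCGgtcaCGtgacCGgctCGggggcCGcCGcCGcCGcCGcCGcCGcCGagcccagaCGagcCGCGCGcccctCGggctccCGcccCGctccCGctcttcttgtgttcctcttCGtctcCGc

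The IGF1 window (chr5:81761777-81762026, forward strand) held 1 CG and was 38.8% G or C, and 95.8% of the 19543 promoter windows of the same length held at least as many CG. The IGF1R window (chr1:137691039-137691288, reverse strand) held 44 CG at 83.6% G or C, a number reached by 1.84% of windows. The IGF2R window (chr1:7472481-7472730, reverse strand) held 39 CG at 78.8% G or C, reached by 4.12% of windows, and the median window held 12. Among the longest RefSeq transcripts IGF1 was again the lowest, with 37% G or C. The receptors came in the other order there, with 50.6% for IGF1R and 61.2% for IGF2R. These counts describe the sequence and say nothing of how the promoters act in muscle.

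IGF1 (ENSSSCG00000000857, chr5:81762027-81909253, forward strand) was present at a few CPM in each pig. In high IMF pigs 1 to 6 its level was 4.43, 5.64, 7.60, 4.83, 4.39 and 4.42 CPM, and in low IMF pigs 7 to 12 it was 4.49, 2.37, 5.30, 4.18, 5.16 and 6.14 CPM. Pig 3 had the highest and pig 8 the lowest level, a 3.20-fold span, and the remaining pigs of both groups were intermixed. Mean levels were 5.22 ± 1.26 CPM (SD, n = 6) for high IMF and 4.61 ± 1.29 CPM (SD, n = 6) for low IMF. The log2 fold change (log2FC, low over high IMF) was −0.18 with a standard error (SE) of 0.21 and an adjusted p of 0.800 by edgeR's quasi-likelihood test, and a two-sided exact permutation test over all arrangements of the pigs gave p = 0.446. Without pig 3 the log2FC was −0.043 and without pig 8 −0.034. Without the 6 pigs whose Y chromosome counts went against the label, the log2FC of IGF1 was 0.23 (SE 0.19, adjusted p = 0.998 in edgeR). 2 unnamed genes overlap IGF1 on the opposite strand, and the strand option of the counting is not stated in the sources used here.

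The receptor IGF1R (ENSSSCG00000030560, chr1:137383623-137691038, reverse strand) was the member with the smallest unadjusted p. Its level was 10.8, 12.0, 10.4, 9.18, 8.66 and 10.3 CPM in pigs 1 to 6 and 14.3, 16.0, 13.7, 9.88, 11.2 and 12.0 CPM in pigs 7 to 12. Pigs 7, 8 and 9 lay above all high IMF pigs, 5 of the 6 low IMF pigs lay above the high IMF median, and the groups overlapped. Mean levels were 10.2 ± 1.18 CPM (SD, n = 6) and 12.9 ± 2.25 CPM (SD, n = 6), a 1.26-fold difference. The log2FC was 0.33 (SE 0.13) with an unadjusted p of 0.0215, an adjusted p of 0.439 in edgeR and an exact permutation p of 0.0346, so IGF1R did not pass the adjusted test. All of the 3 highest pigs have Y chromosome counts against their label, and without the 6 such pigs the log2FC was 0.14 (SE 0.16). PGPEP1L overlaps IGF1R on the opposite strand.

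IGF2R (ENSSSCG00000004044, chr1:7369485-7472480, reverse strand) had the largest log2FC of the 8 genes. It stood at 53.5, 65.0, 27.4, 33.1, 40.1 and 36.2 CPM in pigs 1 to 6 and at 59.2, 73.2, 70.6, 46.0, 41.7 and 59.8 CPM in pigs 7 to 12. High IMF pigs 1 and 2 lay within the range of the low IMF pigs and high IMF pigs 3 to 6 under it, all 6 low IMF pigs lay above the high IMF median of 38.1 CPM, and the groups overlapped. Group means were 42.5 ± 14.1 CPM (SD, n = 6) and 58.4 ± 12.7 CPM (SD, n = 6). The log2FC of 0.46 (SE 0.21, a 1.37-fold difference) had an unadjusted p of 0.0460, an adjusted p of 0.470 in edgeR and an exact permutation p of 0.0649. Without the 6 pigs whose Y chromosome counts went against the label it was 0.12 (SE 0.31).

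Per kb of the longest RefSeq transcript, the level of IGF2R was 6.68 CPM per kb on average (range 3.63 to 9.68), that of IGF1R 0.998 (0.750 to 1.39) and that of IGF1 0.675 (0.326 to 1.04). IGF2R exceeded IGF1R in 12 of 12 pigs, and IGF1R exceeded IGF1 in 11 of 12, with pig 3 the exception. The ranges of IGF1R and IGF1 overlapped. The RefSeq model of IGF2R holds 7467 coding bases of 7560, against 4056 of 11557 for IGF1R and 414 of 7282 for IGF1. With so little beyond its coding part, the level of IGF2R per kb may be too high beside theirs. The binding proteins, with RefSeq models of 780 to 1513 bases, were left out of this order. The ratio of IGF2R to IGF1R in CPM ran from 2.63 in pig 3 to 5.43 in pig 2, both of the high IMF group, and the low IMF pigs lay between 3.73 and 5.15.

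**Figure D1:**
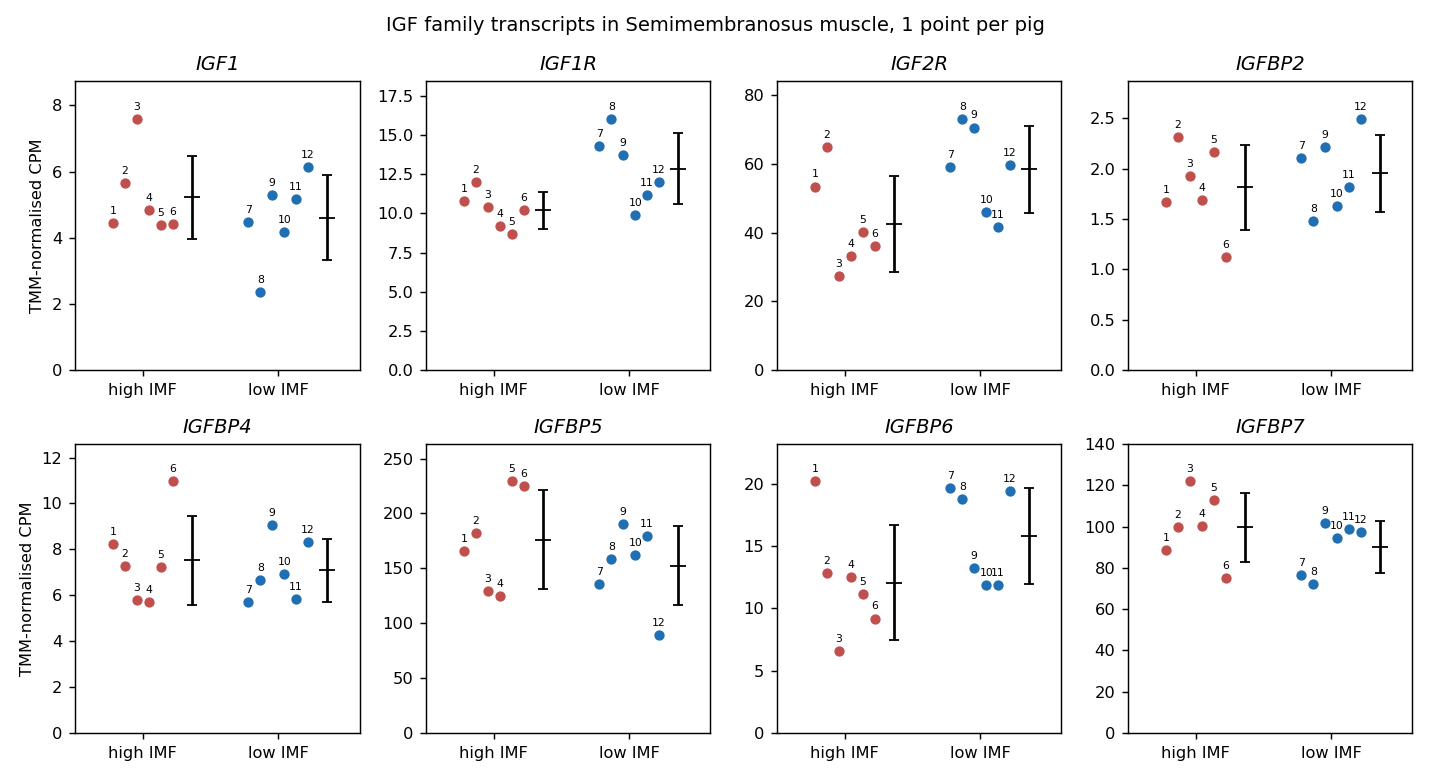
Level of each IGF gene in TMM-normalised CPM (vertical axis, from 0) in each pig (points, numbered) of the high and low IMF groups, with the group mean and SD beside the points. The groups overlap for each of the 8 genes, and IGF1R and IGF2R have the highest points in low IMF pig 8.

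Among the binding proteins, IGFBP5 and IGFBP7 were the most counted, and none passed the adjusted test. IGFBP5 (ENSSSCG00000025924, chr15:118861816-118877787, reverse strand), a conserved binding protein of the extracellular matrix, was at 166, 182, 129, 124, 229 and 225 CPM in pigs 1 to 6 and at 136, 158, 190.2, 162, 179 and 89.1 CPM in pigs 7 to 12. Pigs 5 and 6 were the highest and pig 12 the lowest, a 2.57-fold span, and the other 9 pigs were intermixed. Its log2FC was −0.21 (SE 0.20, adjusted p = 0.745 in edgeR), lay between −0.083 and −0.125 when pig 5, 6 or 12 was left out, and was −0.37 (SE 0.33) without the 6 pigs with contrary Y chromosome counts. IGFBP7 (ENSSSCG00000008913, chr8:56283089-56357822, reverse strand, with POLR2B overlapping on the other strand) was at 88.5, 99.8, 122, 100.4, 113 and 74.9 CPM in pigs 1 to 6 and at 76.4, 72.3, 102, 94.7, 98.9 and 97.2 CPM in pigs 7 to 12. It had the narrowest range of the 8 genes, 1.69-fold, and 1 of the 6 low IMF pigs lay above the high IMF median. Its log2FC was −0.14 (SE 0.13, adjusted p = 0.727 in edgeR), and 0.12 (SE 0.17) without the 6 pigs whose Y chromosome counts went against the label. Leaving out pig 3, 7 or 8 gave −0.079, −0.095 and −0.077.

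IGFBP6 (ENSSSCG00000000261, chr5:18352884-18357225, forward strand) was at 20.2, 12.8, 6.59, 12.5, 11.13 and 9.18 CPM in pigs 1 to 6 and at 19.7, 18.7, 13.3, 11.9, 11.8 and 19.4 CPM in pigs 7 to 12. High IMF pig 1 was the highest of all and high IMF pig 3 the lowest, a 3.06-fold span, and 4 pigs near 20 CPM stood apart from the other 8. Its log2FC was 0.39 (SE 0.24) with an adjusted p of 0.591 in edgeR and an exact permutation p of 0.143. Without pig 1 it was 0.59 (SE 0.20, unadjusted p = 0.0127), and without the 6 pigs with contrary Y chromosome counts 0.20 (SE 0.33). IGFBP4 (ENSSSCG00000017472, chr12:21966524-21980043, reverse strand), a binding protein cut by the protease PAPPA, ranged from 5.69 to 11.0 CPM with high IMF and from 5.72 to 9.08 CPM with low IMF. Its log2FC was −0.09 (SE 0.17, adjusted p = 0.898 in edgeR). Pig 6 had the highest level of IGFBP4, and without it the log2FC was 0.049. Leaving out any other single pig gave −0.17 to −0.027, and leaving out the 6 pigs with contrary Y chromosome counts gave −0.18 (SE 0.29). IGFBP2 (ENSSSCG00000035392, chr15:118822092-118850985, forward strand), which lies beside IGFBP5 on chromosome 15, was the least counted, at 1.13 to 2.31 CPM with high IMF and 1.48 to 2.50 CPM with low IMF. Its log2FC was 0.11 (SE 0.19, adjusted p = 0.879 in edgeR), lay between 0.0029 (without pig 6) and 0.19 (without pig 2) with 1 pig left out, and was 0.35 (SE 0.32) without the 6 pigs with contrary Y chromosome counts.

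Over the 8 genes, 0 were called at an adjusted p at or under 0.05 with a log2FC of at least 0.58 in size, and over all genes tested the share called was 0%. An unadjusted p of 0.05 or less was found for 2 of 8 genes, IGF1R and IGF2R, beside 10.4% of all genes tested. Both were higher in low IMF, as were 5.38% of all genes at that p. The groups overlapped for 8 of the 8 genes, and they did not overlap for 0.659% of all genes. 4 log2FC were above 0 and 4 under it, and the median was 0.01 against −0.01 over all genes. In whole muscle, fewer cells of a type and less RNA per cell cannot be told apart. DESeq2's Wald test called 58 of all genes tested, and 0 of these 8.

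**Figure D2:**
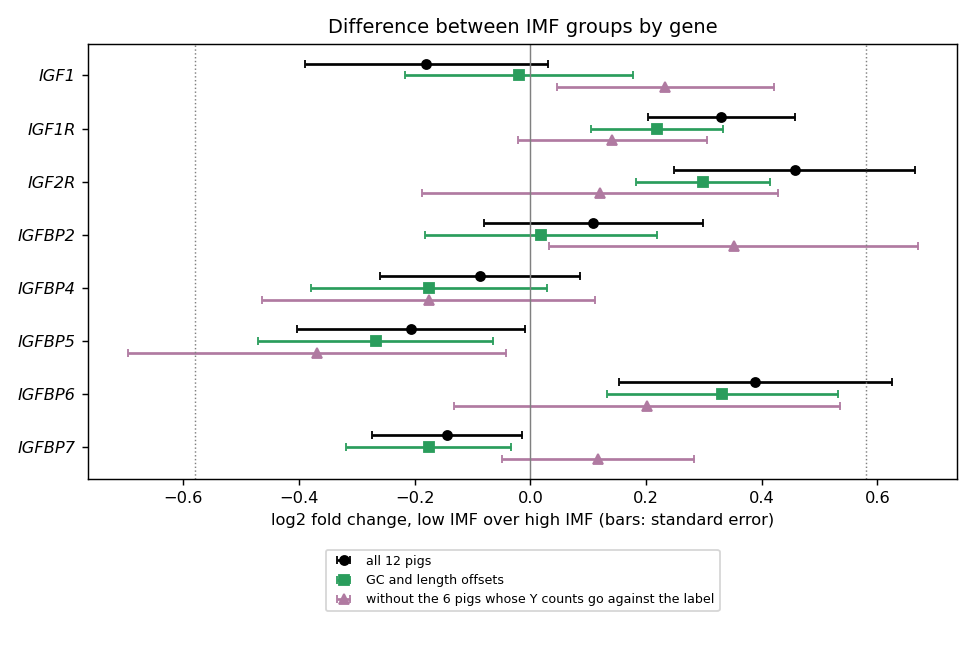
Log2FC of each IGF gene, low over high IMF, with its standard error (horizontal axis), for all 12 pigs, with offsets for GC content and length, and without the 6 pigs whose Y chromosome counts go against the label. Dotted lines mark the log2FC of 0.58 in size used for calls, which no estimate reaches, and IGF1R falls from 0.33 to 0.22 and 0.14, IGF2R from 0.46 to 0.30 and 0.12.

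The spread between pigs was near that of other genes of this muscle. The SD of log2 CPM over 12 pigs was 0.49 for IGFBP6, 0.46 for IGF2R, 0.40 for IGF1, 0.38 for IGFBP5, 0.32 for IGFBP2, 0.30 for IGFBP4, 0.27 for IGF1R and 0.23 for IGFBP7. The median gene had 0.33, 4 of the 8 lay above it, and the most variable, IGFBP6, stood at the 70.8th percentile of all genes tested. Without pig 8, its lowest pig, IGF1 had an SD of 0.26, though leaving out an extreme pig narrows the range. In none of the 16 sets of 6 pigs (8 genes in 2 groups) did the highest or lowest pig stand apart by Dixon's test.

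Libraries differed in how strongly counts depended on base composition, and some members moved with this. For each pig a GC slope was taken, the change in log2 CPM, relative to the gene's mean, per 10 percentage points of transcript GC content over 11083 genes. High IMF pigs had a mean slope of −0.067 ± 0.14 (SD, n = 6) and low IMF pigs one of 0.067 ± 0.076 (SD, n = 6) (two-sided exact permutation p = 0.0693). Pigs 3, 4, 5 and 6, all of high IMF, had the 4 lowest slopes, and these are the 4 pigs with the lowest IGF2R. The level of IGF2R correlated with the slope at Pearson's r = 0.96 and Spearman's rho = 0.95 over 12 pigs (permutation p = 2e-05 and 4e-05, adjusted over 16 relations 0.00032 and 0.00064), at r = 0.95 for deviations from the group means, and at r = 0.96 without the 2 pigs farthest from the median slope.

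IGFBP6 correlated with the GC slope at r = 0.81 and rho = 0.78 (permutation p adjusted over 16 relations 0.0072 and 0.0184), at 0.74 within groups and at 0.62 without the 2 farthest pigs. IGF1R did so at r = 0.75 and rho = 0.78 (adjusted permutation p = 0.0222 and 0.0184), at 0.63 within groups and at 0.85 without those 2 pigs. The fourth relation past an adjusted p of 0.05 was that of IGF2R with the corresponding slope on transcript length, r = 0.89 and rho = 0.92 (adjusted permutation p = 0.0016 and 0.00088), at 0.88 within groups and 0.86 without 2 pigs. IGF1 did not pass with the GC slope (r = −0.38, rho = −0.10, adjusted permutation p = 0.398 and 0.799). Neither did IGFBP4 (68.6% G or C in its longest RefSeq transcript, r = 0.06), IGFBP2 (67.1%, 0.36), IGFBP5 (63.7%, −0.15) or IGFBP7 (59.6%, −0.38). The relation with the slope thus did not follow the GC content of these RefSeq models. Coding bases make up 780 of 780 in the model of IGFBP4, 951 of 1385 for IGFBP2, 816 of 967 for IGFBP5 and 849 of 1120 for IGFBP7. The GC content of the full transcripts may differ. Whether the slopes stem from the libraries or from the muscles was not tested.

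With each pig's GC and length dependence entered as offsets in edgeR, the log2FC of IGF2R was 0.30 (SE 0.12, unadjusted p = 0.0221, adjusted p = 0.582), that of IGF1R 0.22 (SE 0.11, unadjusted p = 0.0759, adjusted p = 0.642), that of IGFBP6 0.33 (SE 0.20, adjusted p = 0.681) and that of IGF1 −0.02 (SE 0.20, adjusted p = 0.988). The SD of log2 CPM of IGF2R over the pigs was 0.25 after the GC and length term was removed, against 0.46 before. It also fell for IGFBP6 (0.41 against 0.49), IGF1R (0.21 against 0.27) and IGF1 (0.37 against 0.40). It rose for IGFBP4 (0.37 against 0.30), IGFBP7 (0.27 against 0.23), IGFBP2 (0.34 against 0.32) and IGFBP5 (0.40 against 0.38). The term removed rests on the same RefSeq models.

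**Figure D3:**
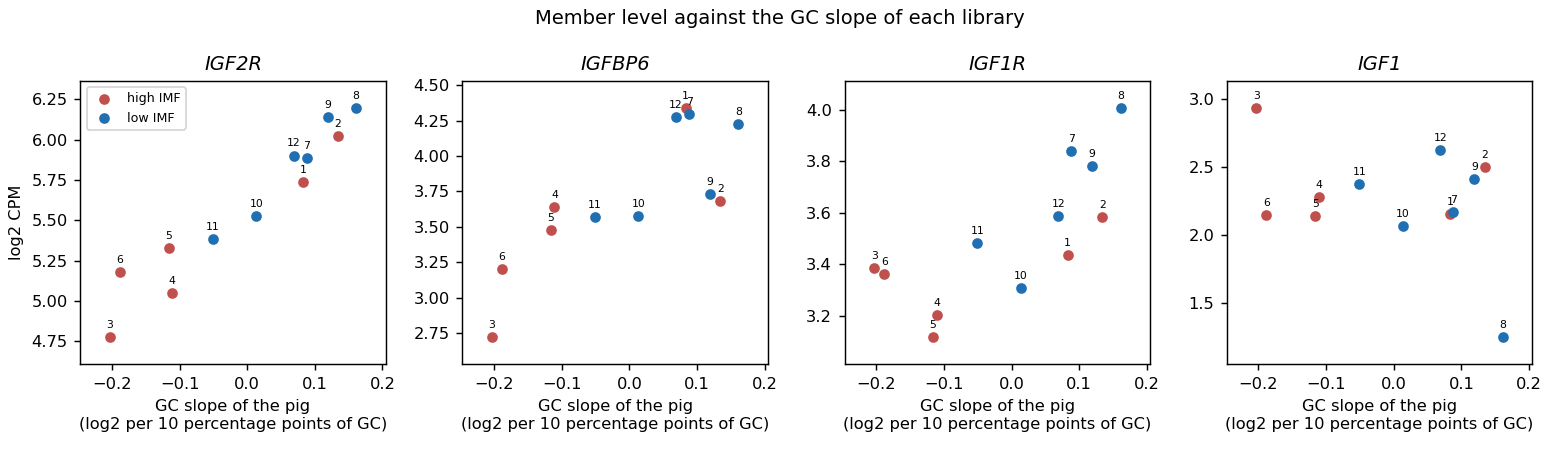
Log2 CPM of IGF2R, IGFBP6, IGF1R and IGF1 (vertical axes) against the GC slope of each pig (horizontal axis, log2 per 10 percentage points of GC), 1 numbered point per pig, coloured by IMF group. IGF2R lies along a rising line (r = 0.96), IGFBP6 and IGF1R rise with more scatter (0.81 and 0.75), and IGF1 has r = −0.38.

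How the members varied together was examined over all 28 pairs. 2 pairs had an adjusted permutation p at or under 0.05 for Pearson's r. IGF1R and IGF2R correlated at r = 0.78 and rho = 0.81 (adjusted permutation p = 0.0473 and 0.0666), and IGF2R and IGFBP6 at r = 0.77 and rho = 0.71 (0.0473 and 0.146). Both pairs consist of genes that also correlated with the GC slope. After the GC and length term was removed r was 0.55 for the first pair (adjusted permutation p = 0.230) and 0.71 for the second (0.0926). For deviations from the group means r was 0.67 and 0.70, and without the 2 pigs farthest from the median of the first gene 0.73 and 0.67, in each case with an adjusted p above 0.05. IGF1 and IGFBP7 correlated at r = 0.72 and rho = 0.57 (adjusted permutation p = 0.0609 and 0.262). Their r was 0.69 for deviations from the group means, 0.64 after the GC and length term was removed, and 0.34 without the 2 pigs farthest from the median of IGF1. Leaving out those pigs narrows the range of IGF1, so the lower r cannot show whether the relation rested on them.

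**Figure D4:**
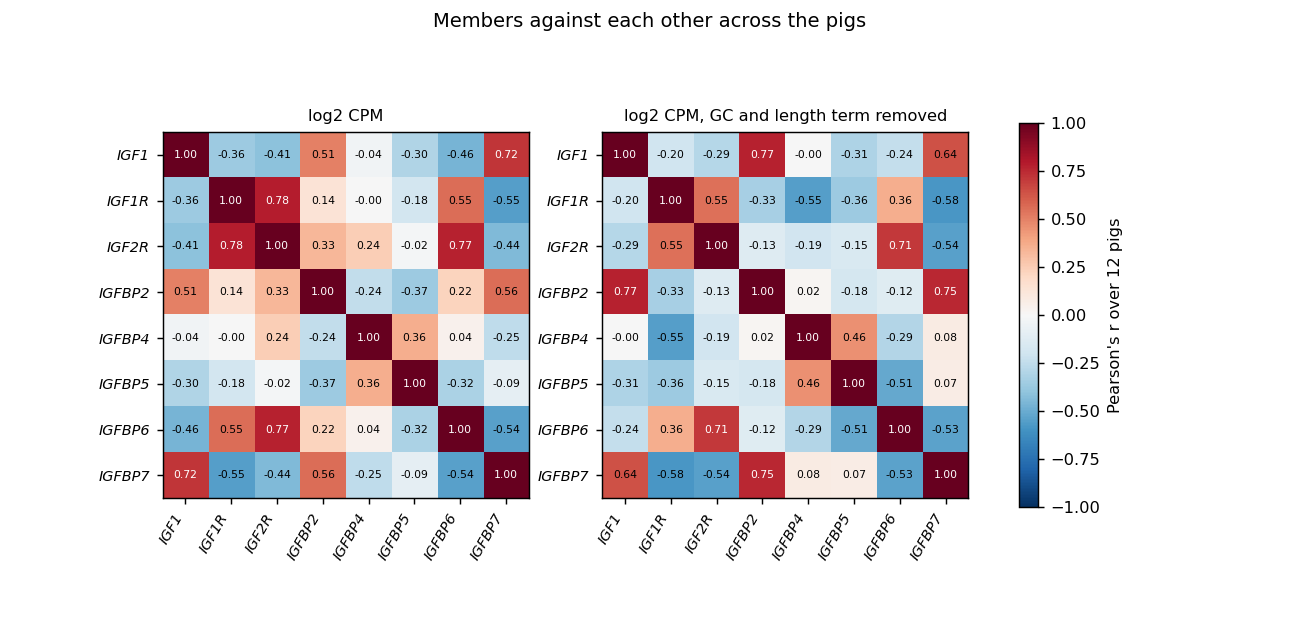
Pearson's r of log2 CPM between each pair of IGF genes over 12 pigs (colour and printed value), as normalised (left) and after the GC and length term was removed (right). IGF1R with IGF2R goes from 0.78 to 0.55 and IGF2R with IGFBP6 from 0.77 to 0.71.

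Since IGF ligands and binding proteins are also made by connective tissue and vessels, each member was set beside the mean log2 CPM of marker lists of 7 cell types. Against the 11 measured markers of fibro-adipogenic cells (such as PDGFRA, DCN and COL1A1), r lay between −0.34 and 0.50, and 0 of 8 relations had an adjusted permutation p at or under 0.05. Summed, these markers spanned 1631 to 3147 CPM in the high and 2429 to 3700 CPM in the low IMF group. PDGFRA was the 1 marker to reach an unadjusted p of 0.05, higher in high IMF, while 7 of the 11 had a log2FC above 0. Over all 56 relations, 1 passed for r. IGFBP2 followed the endothelial markers, r = 0.82 and rho = 0.76 (adjusted permutation p = 0.0476 and 0.123), with r = 0.81 within groups, 0.81 without 2 pigs and 0.75 after the GC and length term was removed (adjusted permutation p = 0.144). IGFBP2 and the markers of smooth muscle and pericytes gave r = 0.75 and rho = 0.92 (adjusted permutation p = 0.164 and 0.0039). The summed endothelial markers spanned 104 to 143 CPM in the high and 109 to 176 CPM in the low IMF group, with EGFL7 at 0 in all pigs. Of the 6 tested, 4 had a log2FC above 0. CDH5 was the 1 to reach an unadjusted p of 0.05, higher in low IMF (log2FC 0.55, unadjusted p = 0.0041, adjusted p = 0.383 in edgeR). IGFBP7 was inversely related to the macrophage markers, at r = −0.73 and rho = −0.75, short of the adjusted threshold (permutation p = 0.164 and 0.123), but at r = −0.81 with an adjusted permutation p of 0.0325 for deviations from the group means. Without the 2 farthest pigs r was −0.49. What part these cells had in the levels was not tested.

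The genes whose level was most like that of IGF1 over 12 pigs, of 11829 named genes compared, were TMSB10 (r = 0.87), GUCY1A1 (0.85), LXN (0.84), SMARCA5 (0.83) and STXBP6 (0.83). Those most like IGF2R, a list added after its values were seen, were ZFHX3 (0.98), VPS13D (0.96), PRRC2A (0.96), DST (0.96) and WWC3 (0.96), with RefSeq transcripts of 6.25 to 24.5 kb. After the GC and length term was removed these 5 had r of 0.83 to 0.96 with IGF2R.

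Other genes of the pathway were taken by list. Upstream, 5 genes of the growth hormone axis were tested, and SOCS2 had no identifier. JAK2, the kinase bound to the growth hormone receptor, lay between 30.8 CPM (pig 2) and 43.1 CPM (pig 6) with high IMF and between 23.97 CPM (pig 12) and 30.4 CPM (pig 10) with low IMF. It was the 1 gene of the 32 pathway genes tested whose groups did not overlap, beside 0.659% of all genes, and its log2FC was −0.33 (SE 0.10, unadjusted p = 0.00628, adjusted p = 0.419 in edgeR). With the GC and length offsets its log2FC was −0.18 (unadjusted p = 0.0629). STAT5B, a transcription factor phosphorylated by JAK2, had a log2FC of 0.21 (unadjusted p = 0.0471), which was 0.13 (0.253) with the offsets. GHR, the receptor, had a log2FC of 0.14 and unadjusted p = 0.277, and CISH, a feedback inhibitor that varied from 1.04 to 47.3 CPM, had 0.77 (SE 0.82). The value for CISH rested on single pigs, at 1.80 (unadjusted p = 0.0319) without pig 6 and 0.25 without pig 7, and limma-voom gave 1.55.

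Of the genes that set IGF availability, 7 of 10 were tested. STC1, which encodes a stanniocalcin that inhibits PAPPA, was at 2.13, 1.71, 1.70, 3.27, 1.05 and 7.43 CPM in pigs 1 to 6 and at 0.887 to 1.69 CPM in the low IMF group, with a log2FC of −1.06 (unadjusted p = 0.0203, adjusted p = 0.435 in edgeR). High IMF pig 6 held the top value, and without it the log2FC was −0.51 (unadjusted p = 0.0792). HTRA1, a secreted protease that can cut binding proteins, had a log2FC of 0.23 (unadjusted p = 0.0383), and 0.023 without the 6 pigs with contrary Y chromosome counts. PAPPA itself had 0.22 (unadjusted p = 0.294). IGFALS, which forms the circulating complex, was at most 0.211 CPM. Of the genes for IGF2 RNA and its neighbourhood, IGF2BP2 (log2FC 0.24) and IGF2BP3 (0.14) were tested, INS and IGF2BP1 had 0 counts in all pigs, and ZBED6 and H19 had no identifier.

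Downstream of the receptors, 18 genes were tested. Of these, 16 had a log2FC above 0, the median was 0.25, 6 reached an unadjusted p of 0.05 higher in low IMF and 0 higher in high IMF, and 0 passed the adjusted test. Over all genes, 48.4% had a log2FC above 0 and 5.38% reached that p higher in low IMF. With the GC and length offsets, 17 of the 18 were above 0 and the median was 0.16. Without the 6 pigs with contrary Y chromosome counts, 11 of the 18 were above 0 and the median was 0.039. AKT2, the kinase of insulin and IGF signalling typical of muscle and fat, was at 70.9, 70.0, 62.4, 67.9, 64.6 and 64.8 CPM in pigs 1 to 6 and at 88.9, 86.8, 86.8, 92.1, 70.7 and 74.5 CPM in pigs 7 to 12, a log2FC of 0.32 (SE 0.09, unadjusted p = 0.00259, adjusted p = 0.367 in edgeR). Its groups overlapped by pig 11 alone, and its adjusted p in DESeq2's Wald test was 0.0406, the 1 pathway gene under 0.05 there. With the GC and length offsets the log2FC of AKT2 was 0.20 (unadjusted p = 0.0725). FOXO1 and FOXO3, transcription factors that AKT keeps out of the nucleus and that promote muscle protein breakdown, had log2FC of 0.73 (unadjusted p = 0.0133) and 0.54 (0.0203). INSR, the insulin receptor and close relative of IGF1R, had 0.45 (unadjusted p = 0.0166), the kinase PDPK1 0.27 (0.0313) and the adaptor GRB2 0.21 (0.0425). With the GC and length offsets the log2FC was 0.72 for FOXO1, 0.45 for FOXO3, 0.36 for INSR, 0.18 for PDPK1 and 0.22 for GRB2.

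Over the 4 pathway lists, 8 of 32 genes reached an unadjusted p of 0.05 higher in low IMF, beside 5.38% of all genes, and 2 higher in high IMF. With the GC and length offsets these were 5 and 1, where 4.93% of all genes were higher in low IMF at that p. Without the 6 pigs whose Y chromosome counts went against the label they were 0 and 0, beside 1.86%. The log2FC was then 0.85 for FOXO1 (unadjusted p = 0.0753), 0.26 for FOXO3, 0.25 for INSR, 0.19 for PDPK1, 0.13 for GRB2, 0.10 for STAT5B and 0.094 for AKT2. Of the genes higher in high IMF, JAK2 had −0.39 and STC1 −1.12 without these pigs, against −0.33 and −1.06 with all pigs. With 1 pig left out, the number higher in low IMF ran from 3 without pig 8 to 11 without pig 11, and was 5 without pig 4, 6 or 10, and the number higher in high IMF was 1 or 2.

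**Figure D5:**
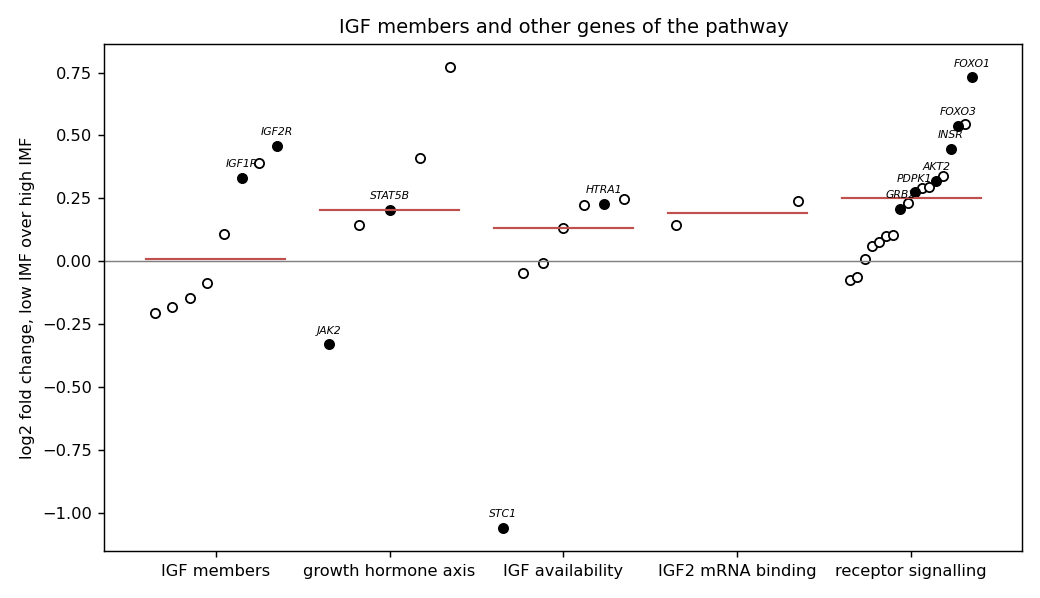
Log2FC, low over high IMF (vertical axis), of the IGF genes and of 4 lists of other pathway genes (columns), 1 point per gene in order of size, with the median of each column as a line. Filled and named points have an unadjusted p at or under 0.05, and 6 of these are in receptor signalling, all above 0, while JAK2 and STC1 lie under 0.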

How the data were processed

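Polyadenylated RNA of 12 muscles was made into stranded libraries and sequenced as read pairs. By their account the authors trimmed reads with Trimmomatic, aligned them to pig genome 11.1 with HISAT2, assembled with StringTie and counted with HTSeq. The deposited values are counts per Ensembl gene and pig. In each pig their sum exceeds the number of input reads that the study lists for it. A count may therefore not stand for 1 read pair, and how the excess arose was not tested. The annotation release, the strand option and the handling of multiply aligned reads are not given in the sources used here. Per-sample depth is 131048805 to 178013997 counts, and the 8 IGF genes had at least 142 counts in each pig. Some pathway and marker genes had fewer, down to 0. Each sample is 1 pig, and by the study's methods siblings were avoided.

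Genes kept by filterByExpr (14262) were normalised by TMM and compared by edgeR's quasi-likelihood test (edgeR 4.0.16, R 4.3.3), group as the only term, with Benjamini-Hochberg adjustment over all of them. Calls needed both an adjusted p not above 0.05 and a log2FC past 0.58 in either direction. Log2 CPM used a prior count of 2. Single values were tested by exact permutation over all arrangements of 6 and 6 pigs, and correlations by 100000 permutations (scipy 1.17.1), adjusted within each family of relations. Alternatives were DESeq2 (1.42.0) size factors and Wald test, upper-quartile scaling, limma-voom (limma 3.58.1), other count filters, labelled sex as a covariate, each pig left out, and the 6 pigs with contrary Y chromosome counts left out. Since the labelled sex is contrary to the Y chromosome counts in 6 pigs, that covariate may not adjust for sex. Sex by Y chromosome counts was not used as a covariate. Offsets for GC content and length (natural splines, 3 degrees of freedom each), the analysis of all member pairs and that of all marker lists were added after the data were seen. The offsets cover the 11083 genes with a matched RefSeq transcript (77.7% of those tested, and 8 of the 8 IGF genes), and that model was fitted to these genes only. Positions are those of RefSeq genes of the same symbol on Sscrofa11.1. Tests were tried on simulated counts.

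Genes, lists and tests were chosen with earlier results of these data known. Genes named are all IGF genes found, pathway genes at an unadjusted p of 0.05 or with the largest log2FC of their list, marker and Y chromosome genes, and the 5 genes most like IGF1. GHR, PAPPA, IGFALS, IGF2BP3 and the genes most like IGF2R were named after their values were seen.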

Additional observations from a re-analysis of the deposited data

How the results depend on the processing

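The number of IGF genes called stayed at 0 under all 22 alternatives, and adjusted p-values of the 8 genes lay between 0.217 and 0.998. The number with an unadjusted p not above 0.05, 2 of 8, was 1 with upper-quartile normalization, 1 with the GC and length offsets, 0 without the pigs whose Y chromosome counts went against the label, and 0 to 3 when 1 pig was left out (0 without pig 5 and without pig 8, 3 without pig 1). Directions turned in 3 cases: IGF1 to 0.23 and IGFBP7 to 0.12 without the pigs with contrary Y chromosome counts, and the log2FC of IGFBP4, low over high IMF, which ran from −0.17 to 0.049 when 1 pig was left out, to 0.049 without pig 6. The first comparison rests on 4 and 2 pigs. DESeq2's Wald test called 58 of the genes tested, and 65 where each gene with a count entered, against 0 in edgeR (1486 at an unadjusted p not above 0.05).

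Of the 28 member pairs, 2 passed, against 0 with the GC and length term removed, 0 for deviations from group means and 0 without the 2 pigs farthest from the median. Stromal markers gave 0 of 8 relations, and 1 (IGF1, r = 0.73) without 2 pigs. All marker lists gave 1 of 56, against 0 with the GC and length term removed, 0 without 2 pigs and 2 for group deviations (IGFBP2 with endothelial and IGFBP7 with macrophage markers). The planned tests of IGF2 were not run, as it had no identifier. No paired analysis was possible because the groups share no replicate numbers.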
